A study of Mus musculus with 4 samples.

Results

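Interferon-stimulated genes and the PARP family members linked to interferon were examined in mouse testis with and without an intact *Parp1* gene. The set held 33 genes of the 25683 in the gene table, each chosen by its name. It comprised 27 genes known from the interferon response and 6 genes of the PARP group, namely *Parp9*, *Parp10*, *Parp12*, *Parp14*, *Zc3hav1* and the PARP9 partner *Dtx3l*. Most of these genes were barely expressed, and only 23 had enough reads to be tested. None of the 23 passed the test between the genotypes after adjustment for all genes tested. The 2 smallest unadjusted p-values belonged to *Oasl2*, which was 2.52-fold lower in knockout testis, and *Stat2*, which was 1.43-fold higher.

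Interferons are secreted proteins that cells release on sensing foreign nucleic acid. Type I interferon binds its receptor and activates the kinases JAK1 and TYK2, after which a complex that contains STAT2 and IRF9 enters the nucleus. The complex binds a short DNA element, the interferon-stimulated response element, and turns on genes whose products sense, degrade or trap viral RNA and proteins. Several of these genes encode members of the PARP family, which add single ADP-ribose units to proteins or have lost that activity, unlike PARP1, which builds ADP-ribose chains. In the testis, the seminiferous tubules hold the germ cells and Sertoli cells, and macrophages, Leydig cells and vessels lie between the tubules.

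RNAseq was performed on testis of 2 control (wild type) libraries and 2 *Parp1* knockout libraries, to check for *Parp1* mRNA in the knockout mice. The knockout mice carried the *Parp1tm1Zqw* allele, with a *neo* cassette in exon 2 of *Parp1*, and had been crossed from its strain of origin onto C57Bl/J. The sources used here do not give the age of the mice, and the labels do not say that the libraries of a genotype came from separate animals, so p-values measure only the spread between these libraries. The libraries held between 18103863 and 23503503 exon reads. The headings of the knockout columns are identical and tie neither to a sample, so the libraries are told apart by depth, as the deep (21821073 reads) and the shallow (18103863 reads) knockout library. Paired values are given in the order of control replicates 1 and 2 and, for knockout testis, of the deep and the shallow library.

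*Parp1* checked the genotype labels. It had 1781 and 2035 reads in control testis, 489 in the deep knockout library and 424 in the shallow one. It was 3.73-fold lower in knockout testis (log2 fold change -1.90 ± 0.10 SE, adjusted p = 0.0126 by edgeR's quasi-likelihood test). The titles of both knockout samples name a line of *Parg*, the ADP-ribose hydrolase gene, whereas their genotype label names *Parp1*. *Parg* had 766 and 851 reads in control testis and 760 and 888 in knockout testis, and its level cannot show whether its coding sequence was altered. The 2 knockout libraries stood apart from each other in cell type markers. Summed over 7 genes, markers of elongating spermatids reached 20727 and 21248 CPM (reads of a gene scaled to library size by TMM) in the control libraries. They stood at 27834 CPM in the deep knockout library and at 12469 CPM in the shallow one. Markers of Leydig cells, 8 genes, summed to 1374 and 1739 CPM in the control libraries and to 1231 and 2627 CPM in the deep and the shallow knockout library. In bulk testis, fewer cells of a type and less RNA per cell cannot be told apart. Because of this difference, results for the set are given with and without each knockout library.

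The promoters of the set were read first, since the response element is what many of these genes are known to share. Windows of 300 bases, 250 before to 50 after the RefSeq start of a gene (build GRCm38.p6), were matched by symbol for 23 of the 33 genes. The letters searched were a pair of GAAA blocks with 2 bases of any kind between them, which makes 10 bases, on either strand (on the opposite strand the blocks read TTTC). Matches may overlap when 3 or more blocks follow each other. The letters were present in 11 of the 23 genes (47.8%), against 1079 of all 27025 genes with a window (3.99%). A match describes letters and is not a measured binding site.

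Of the 7 promoter stretches given here, those other than *Stat2* were chosen because they carry the densest matches of the set. *Stat2* is given as a gene with an unadjusted p under 0.05 by edgeR's quasi-likelihood test. *Oasl2*, the other such gene, had no match in its window. Each stretch is written 5′ to 3′ on the strand of its gene, and capitals mark the matched letters. *Isg15*, with 3 overlapping matches, is from chr4:156200860-156200911 on the minus strand. *Ifit1* is from chr19:34640770-34640828, *Ifit3* from chr19:34583358-34583431 and *Ifit3b* from chr19:34607754-34607827, all on the plus strand. *Oas1a* is from chr5:120907526-120907560 and *Bst2* from chr8:71537572-71537617, both on the minus strand. *Stat2* is from chr10:128270261-128270300 on the plus strand.
Isg15: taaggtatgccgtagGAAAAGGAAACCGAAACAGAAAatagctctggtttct
Ifit1: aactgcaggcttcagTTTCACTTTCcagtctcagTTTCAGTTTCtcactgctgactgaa
Ifit3: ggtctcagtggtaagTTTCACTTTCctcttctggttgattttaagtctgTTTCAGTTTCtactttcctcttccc
Ifit3b: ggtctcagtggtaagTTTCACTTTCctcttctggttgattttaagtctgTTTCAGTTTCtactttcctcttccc
Oas1a: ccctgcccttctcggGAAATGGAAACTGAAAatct
Bst2: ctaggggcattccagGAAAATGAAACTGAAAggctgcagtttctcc
Stat2: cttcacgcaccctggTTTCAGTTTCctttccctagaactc

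The stretches of *Ifit3* and *Ifit3b* were identical over all 74 bases. The other genes with a match were *Ifih1*, *Oas3*, *Trim30a* and *Rsad2*. No match was found in the windows of *Ifi44*, *Oasl2*, *Oasl1*, *Zc3hav1*, *Parp12*, *Irf7*, *Xaf1*, *Ifi35*, *Cmpk2*, *Irf9*, *Dtx3l* and *Ifit2*. Genes with and without the letters were mostly low in testis. Only 4 of the 11 with a match had enough reads to be tested (*Stat2*, *Ifih1*, *Bst2* and *Trim30a*), against 11 of the 12 without one. The median control level was 0.240 CPM per kb of exon in genes with a match and 0.757 in genes without. Both lay below the median of 5.30 over all genes tested. They include genes with too few reads to be tested, which the 5.30 leaves out, so the gap is partly due to the filter. The highest level with a match was 6.09 CPM per kb (*Bst2*) and without one 16.6 (*Parp12*). *Dhx58*, the highest of the set at 21.1 CPM per kb, had no window and is in neither group.

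**Figure D1:**
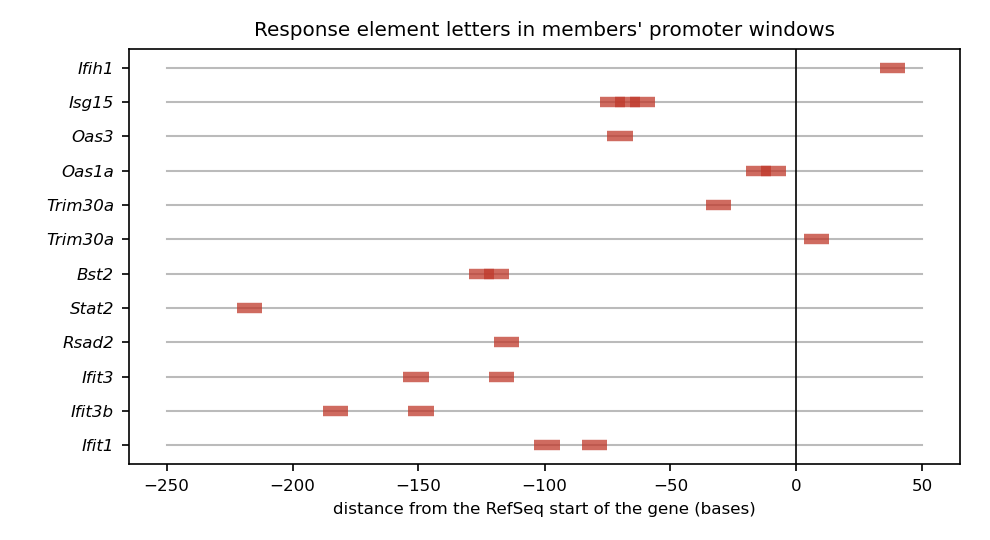
Positions of the response element letters (red bars, 10 bases each) in the promoter windows of the 11 genes that hold them. The horizontal axis gives the distance in bases from the RefSeq start of the gene, each grey line is a window, and *Trim30a* has 2 windows. The matches of *Isg15*, *Oas1a* and *Bst2* overlap, and most lie before the start.

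In control testis, the set was low as a whole. The median gene of the 23 tested stood at 0.627 CPM per kb of exon, above 14.9% of the 15834 genes tested, whose own median was 5.30 CPM per kb. Of the 23, 20 lay below that median. *Dhx58* and *Parp12* were the highest, at 21.1 and 16.6 CPM per kb, above 77.9% and 73.8% of the genes tested. *Bst2* followed at 6.09 CPM per kb, then *Stat2* at 3.39 and *Parp10* at 3.34. *Dhx58*, *Parp12*, *Stat2*, *Parp10* and *Zc3hav1* were the 5 genes with at least 100 reads in every library, and they held 80.0% of all reads of the set. The other 28 genes together had 668 and 1012 reads in control testis and 542 and 634 in the deep and the shallow knockout library. In 14 genes no library reached 30 reads.

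**Figure D2:**
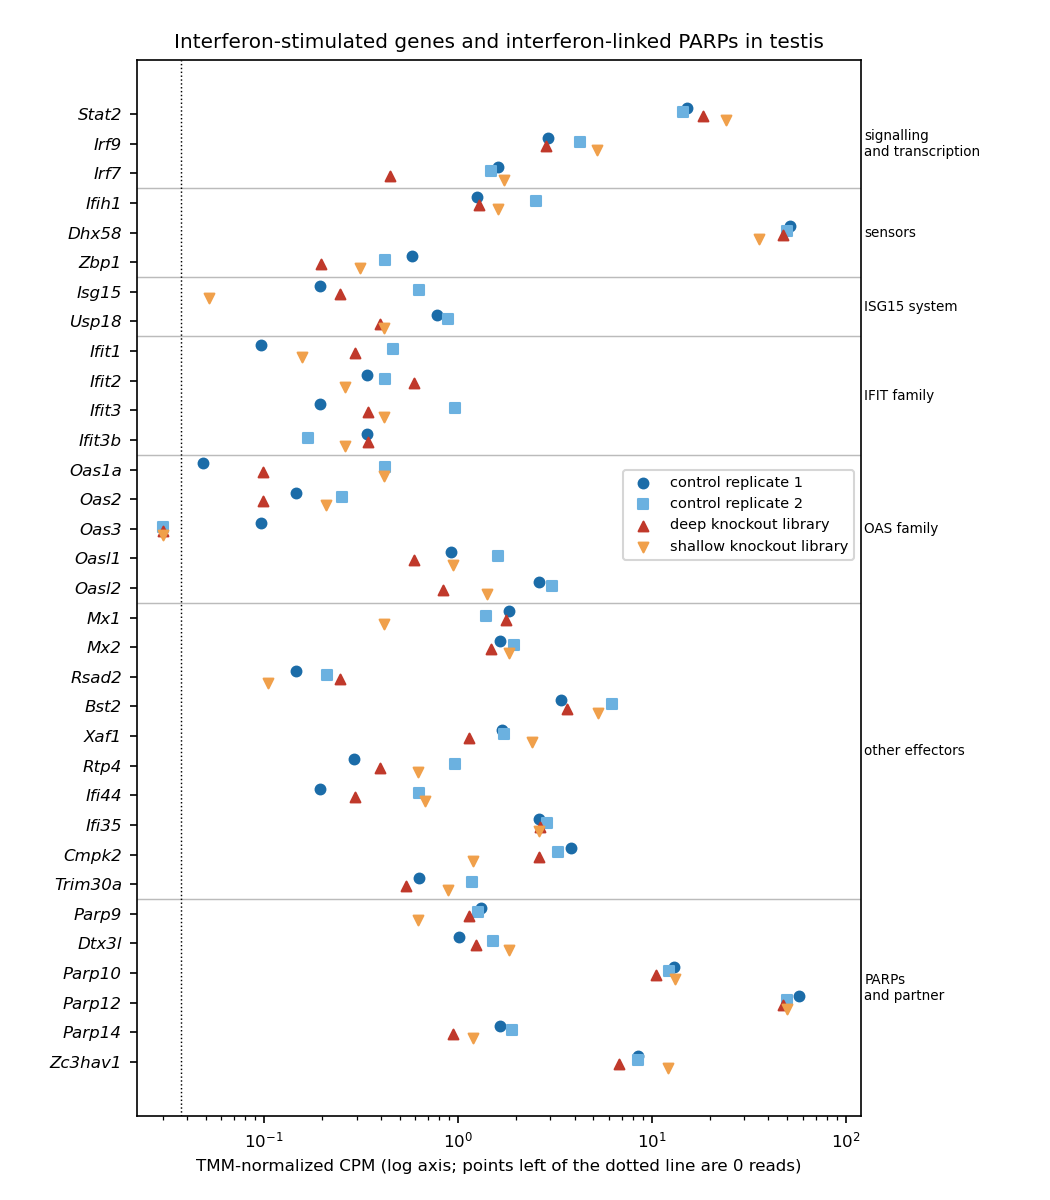
TMM-normalized CPM (log axis) of the 33 genes in each of the 4 libraries, grouped by role. Blue circles and squares are control replicates 1 and 2, red and orange triangles are the deep and the shallow knockout library, and points left of the dotted line are libraries with 0 reads, which occurred only for *Oas3*. *Dhx58* and *Parp12* lie near 50 CPM, and most other genes lie below 5 CPM.

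Across the set, no gene passed an adjusted p of 0.05 in edgeR's quasi-likelihood test, against 15 of the 15834 genes tested (0.0947%). The alternatives (DESeq2, limma voom and the likelihood ratio test of edgeR) also called 0 of the 23. At an unadjusted p of 0.05, 2 of the 23 passed (8.7%), near the 7.79% of all genes tested, and these alternatives gave 2, 2 and 4. For these alternatives the share of all genes at that p was not computed. The likelihood ratio test called 2.36% of all genes tested at an adjusted p of 0.05, so its 4 cannot be set against the 7.79%. Both knockout libraries lay below both control libraries in 7 genes (30.4%, against 19.2% of all genes tested). These were *Dhx58*, *Usp18*, *Oasl2*, *Cmpk2*, *Parp9*, *Parp12* and *Parp14*. Both lay above in 1 gene, *Stat2* (4.35%, against 17.9%), and the genotypes overlapped in the other 15. The log2 fold change was below 0 in 17 of 23 (73.9%, against 48.4% of all genes tested), with a median of -0.29 against 0.01 over all genes tested. That median was 0.00 with control replicate 2 left out and -0.05 with the deep knockout library left out. These counts describe genes that passed a filter on low reads, and they are not a test of the set.

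**Figure D3:**
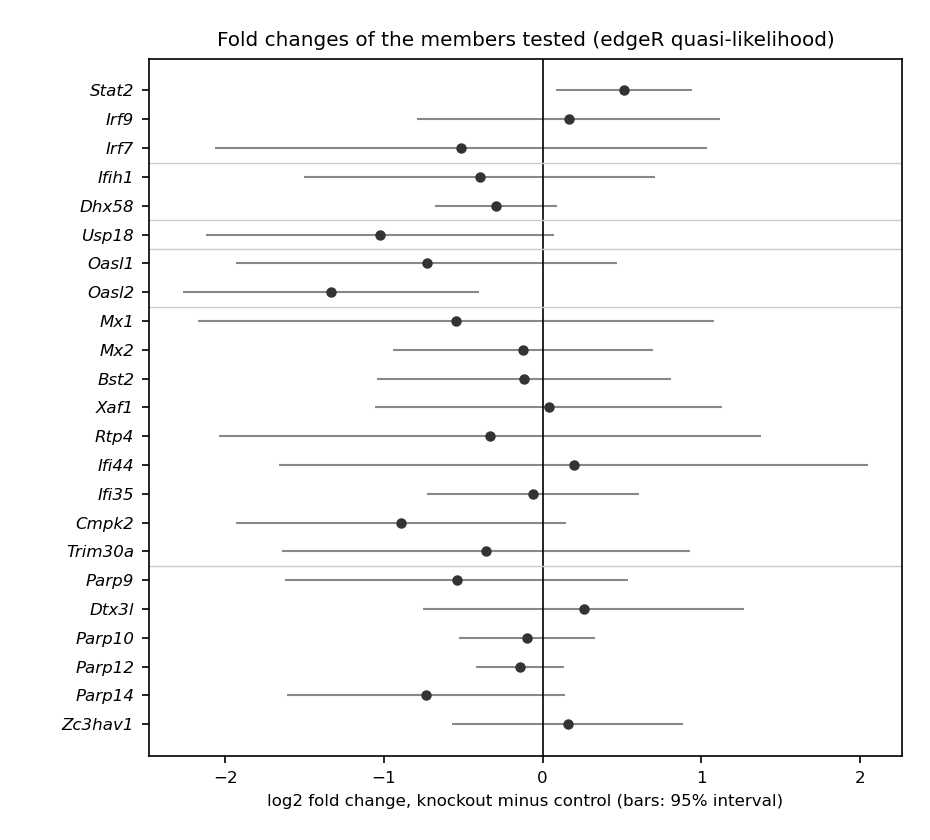
Log2 fold changes, knockout minus control, of the 23 genes tested (points) with 95% intervals (bars), in the order of the roles. Only the intervals of *Stat2* (0.08 to 0.94) and *Oasl2* (-2.27 to -0.40) leave out 0, and the intervals of genes with few reads are wide.

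The transcription factors of the response included the gene of the set that was highest in knockout relative to control testis. *Stat2* (ENSMUSG00000040033, chromosome 10, 128270559 to 128292849), which encodes the subunit that binds IRF9, had 315 and 344 reads in control testis, 372 in the deep knockout library and 464 in the shallow one. In CPM these were 15.3 and 14.5 in control testis and 18.4 and 24.2 in knockout testis. Both knockout libraries were above both control libraries, and the shallow one was farthest from them. The log2 fold change was 0.51 (95% interval 0.08 to 0.94, adjusted p = 0.527 by edgeR). *Irf9*, which brings the complex to DNA, had 60 and 101 reads in control testis and 58 and 100 in the deep and the shallow knockout library. In CPM it stood at 2.91 and 4.27 in control and 2.86 and 5.21 in knockout testis. The knockout libraries thus lay on either side of the control libraries. Its log2 fold change was 0.16 (95% interval -0.79 to 1.12). *Irf7*, which amplifies the transcription of interferon genes, had 33 and 35 reads in control testis, 9 in the deep knockout library and 33 in the other. Its low value stood in 1 library alone. No gene of this group except *Stat2* had separate genotypes.

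Of the 3 sensors of foreign RNA and DNA, 2 were tested, and both log2 fold changes were below 0. *Dhx58* (ENSMUSG00000017830, chromosome 11, 100694884 to 100704271) encodes LGP2, a relative of the sensor MDA5 that tunes its response. It had 1069 and 1185 reads in control testis, 960 in the deep knockout library and 684 in the shallow one. In CPM, control testis stood at 51.9 and 50.1, and the knockout libraries stood at 47.4 and 35.7. The value of the deep library was thus near control and that of the other lower. The log2 fold change was -0.29 (95% interval -0.68 to 0.09, adjusted p = 0.777 by edgeR). *Ifih1*, which encodes MDA5 itself, had 26 and 60 reads in control testis and 26 and 31 in knockout testis, so the genotypes overlapped (log2 fold change -0.40, 95% interval -1.50 to 0.71). *Zbp1*, a sensor of Z-form nucleic acid, had 4 to 12 reads and was not tested.

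The ISG15 system was close to the limit of detection. *Usp18*, the protease that removes ISG15 from proteins and dampens receptor signalling, had 16 and 21 reads in control testis and 8 in each knockout library. In CPM these were 0.776 and 0.887 in control testis and 0.395 and 0.417 in knockout testis, with no overlap. The log2 fold change was -1.03 (95% interval -2.13 to 0.07, adjusted p = 0.689 by edgeR). *Isg15*, the ubiquitin-like modifier, had 4 and 15 reads in control testis and 5 and 1 in the deep and the shallow knockout library, and was not tested. At these depths, 3 reads, which a count of 0 would allow, correspond to 0.127 to 0.156 CPM.

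None of the 4 genes of the IFIT family, which bind viral RNA, had enough reads for a test. Together they had 20 and 48 reads in control testis and 32 and 21 in knockout testis. *Ifit3* had 4 and 23 reads in control testis and 7 and 8 in knockout testis, so that the control libraries lay farther apart than the genotypes. *Ifit2* had 7 and 10 reads in control testis and 12 and 5 in knockout testis. *Ifit1* and *Ifit3b* had between 2 and 11 reads per library. The 4 genes lie side by side on chromosome 19 in the order *Ifit2*, *Ifit3*, *Ifit3b* and *Ifit1*, with gaps of 7.11, 19.2 and 27.5 kb. *Ifit3* and *Ifit3b* are near-identical copies, and 92.6% and 90.9% of their control reads were unique, so their single values are uncertain.

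Several members of the OAS family, but not all, make short oligoadenylates that activate the nuclease RNase L. Summed over its 5 genes, the family had 79 and 126 reads in control testis and 33 and 57 in knockout testis. Most of these belonged to the OAS-like genes. *Oasl2* (ENSMUSG00000029561, chromosome 5, 114896936 to 114912234) had 54 and 72 reads in control testis, 17 in the deep knockout library and 27 in the shallow one. Control testis stood at 2.62 and 3.04 CPM and knockout testis at 0.839 and 1.41 CPM. The knockout libraries were both low and did not overlap with control. The log2 fold change was -1.33 ± 0.38 SE (95% interval -2.27 to -0.40), the lowest of the 23, with an adjusted p of 0.432 by edgeR. *Oasl1*, its neighbour 11 kb away on the same strand, which in mouse restrains the translation of *Irf7*, had 19 and 38 reads in control testis and 12 and 18 in knockout testis. Its genotypes did not overlap in reads but overlapped in CPM, at 0.922 and 1.61 against 0.593 and 0.938 (log2 fold change -0.73, 95% interval -1.93 to 0.47). *Oas1a*, *Oas2* and *Oas3* had 0 to 10 reads per library and were not tested. *Oas3* had 2 reads in control replicate 1 and 0 in the other 3 libraries.

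The other effectors, 10 genes of which 9 were tested, had a median log2 fold change of -0.12, with 7 values below 0 and 2 above. *Bst2*, which encodes the tetherin that holds virus particles at the cell surface, had 70 and 148 reads in control testis and 74 and 101 in knockout testis. Both knockout values lay between the control values, at 3.65 and 5.27 CPM against 3.40 and 6.25 CPM. *Cmpk2*, a mitochondrial nucleotide kinase gene, had 79 and 78 reads in control testis, 53 in the deep knockout library and 23 in the shallow one. Its levels were 3.83 and 3.30 CPM in control and 2.62 and 1.20 CPM in knockout testis, without overlap (log2 fold change -0.89, 95% interval -1.93 to 0.15, adjusted p = 0.733 by edgeR). Its neighbour *Rsad2*, which lies 12.8 kb away and encodes the antiviral enzyme viperin, had 2 to 5 reads and was not tested. *Mx1*, a GTPase gene, had 38 and 33 reads in control testis, 36 in the deep knockout library and 8 in the other. The last value alone was low. *Mx2*, *Xaf1* and *Ifi35* had 23 to 68 reads per library, and *Rtp4*, *Ifi44* and *Trim30a* had 4 to 28. In all 6 the genotypes overlapped, with log2 fold changes from -0.36 (*Trim30a*) to 0.19 (*Ifi44*). Exons of *Rtp4* and *Ifi35* share 13.9% and 16.8% of their bases with other annotated genes, and whether counting used the strand is not given in the sources used here.

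All 6 genes of the PARP group were tested, and their log2 fold changes had a median of -0.12, with 4 below 0 and 2 above. *Parp12* (ENSMUSG00000038507, chromosome 6, 39086410 to 39118349), a mono-ADP-ribosyltransferase with RNA-binding zinc fingers, was the most abundant gene of the set in reads. It had 1182 and 1185 reads in control testis and 966 and 953 in knockout testis. Its levels were 57.3 and 50.1 CPM in control and 47.7 and 49.7 CPM in knockout testis, so the genotypes were separated only by the small step between 50.1 and 49.7. Its log2 fold change was -0.14 (95% interval -0.42 to 0.14), the narrowest interval of the set. *Parp10*, a mono-ADP-ribosyltransferase, had 270 and 291 reads in control testis and 213 and 253 in knockout testis. It stood at 13.1 and 12.3 CPM against 10.5 and 13.2 CPM, with overlap (log2 fold change -0.10, 95% interval -0.53 to 0.33). The lower ends of the intervals of *Parp12* and *Parp10* correspond to 0.748 and 0.693 of the control level.

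*Zc3hav1* encodes ZAP, a PARP family member without catalytic activity that binds viral RNA rich in CpG. It had 175 and 200 reads in control testis, 138 in the deep knockout library and 232 in the shallow one. In CPM, control testis stood at 8.49 and 8.45, and the knockout libraries lay on either side, at 6.81 and 12.1 (log2 fold change 0.16, 95% interval -0.57 to 0.88). *Parp14*, a mono-ADP-ribosyltransferase with macrodomains, had 34 and 45 reads in control testis and 19 and 23 in knockout testis. It stood at 1.65 and 1.90 CPM against 0.938 and 1.20 CPM, without overlap (log2 fold change -0.73, 95% interval -1.61 to 0.14). *Parp9*, a macrodomain protein gene, had 27 and 30 reads in control testis and 23 and 12 in knockout testis, also without overlap in CPM (1.31 and 1.27 against 1.14 and 0.626). *Dtx3l*, which encodes the ubiquitin ligase bound to PARP9, had 21 and 36 reads in control testis and 25 and 35 in knockout testis, with overlap. The log2 fold changes of *Parp9* and *Dtx3l* were -0.54 and 0.26 (95% intervals -1.62 to 0.54 and -0.75 to 1.27). The pair lies head to head on chromosome 16 and shares 458 exon bases on opposite strands, so reads of the shared bases cannot be assigned without strand. *Parp14* lies 55.0 kb from *Dtx3l*.

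The knockout libraries differed from each other in how the set stood relative to control. In the deep library, 2 of the 23 genes tested (*Stat2* and *Mx1*) were above the control mean. In the shallow library, 12 were. The 2 libraries lay on opposite sides of the control mean in 12 genes. The share of all genes tested was not computed for the counts above the control mean and on opposite sides. In the shallow library, 18 of 23 genes were higher than in the deep one, against 50.7% of all genes tested. The median log2 difference from the control mean was -0.31 in the deep library and 0.03 in the other, against -0.01 and 0.00 over all genes tested. The control libraries also differed, since 14 of the 23 genes tested and 21 of all 33 were higher in control replicate 2 than in replicate 1, against 50.6% of all genes tested.

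**Figure D4:**
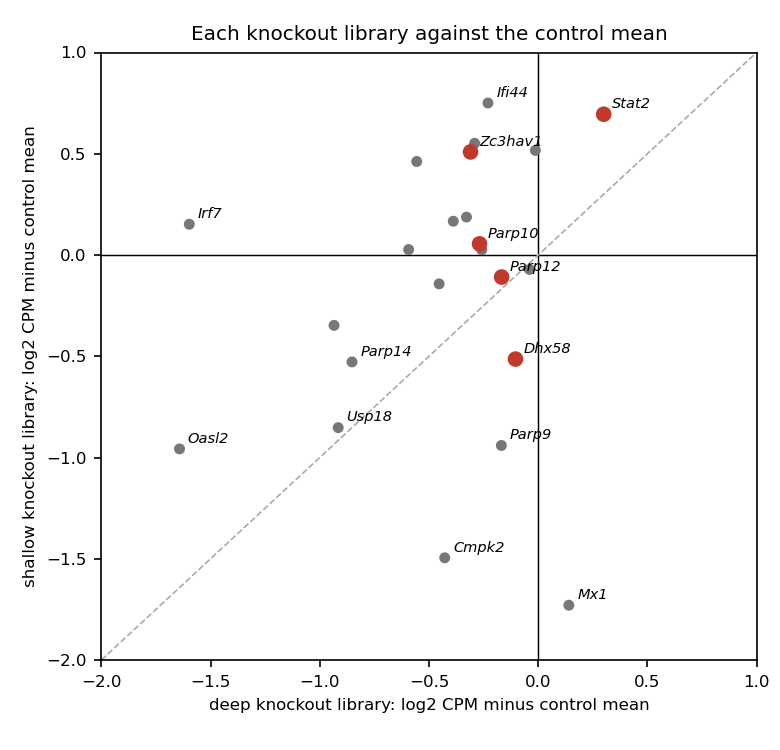
Log2 CPM of each of the 23 genes tested minus the control mean, in the deep knockout library (horizontal axis) and in the shallow one (vertical axis). Large red points are the 5 genes with at least 100 reads in every library, and the dashed line marks equal values. Of the 23 points, 18 lie above the dashed line and 12 have opposite signs on the axes.

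The number of calls depended on which knockout library was kept, over all genes tested as well as within the set. With the deep library left out, 5 of 23 genes passed an adjusted p of 0.05 (21.7%, against 23.6% of all genes tested). These were *Stat2* (log2 fold change 0.70), *Dhx58* (-0.51), *Cmpk2* (-1.56), *Mx1* (-1.93) and *Zc3hav1* (0.52). With the shallow library left out, 2 passed (8.7%, against 17.0% of all genes tested), namely *Oasl2* (-1.75) and *Irf7* (-1.78). No gene of the set was called in both, and the share of all genes tested called in both was not computed. The lone knockout library of such a fit is assumed to vary like the control libraries. With control replicate 1 or control replicate 2 left out, the median log2 fold change of the 23 genes was -0.38 and 0.00. *Irf7* and *Mx1* are given with all their reads above because of their calls without a knockout library, after their values were seen.

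Summed levels of cell type markers were set beside those of the low members of the set. The 28 genes with fewer than 100 reads in some library summed to 32.4 and 42.8 CPM in control testis and to 26.8 and 33.1 CPM in the deep and the shallow knockout library. Over 11 macrophage markers, all detected in every library, the sums were 100 and 124 CPM in control testis and 103 and 143 in knockout testis. Over 7 endothelial markers, all detected, the sums were 14.9 and 24.8 CPM against 15.0 and 19.2 CPM. Over 5 peritubular markers, all detected, the sums were 65.5 and 103 CPM against 56.3 and 79.6 CPM. In each of these lists, as in the 28 genes, control replicate 2 was above control replicate 1 and the shallow knockout library was above the deep one. Markers of Leydig cells, Sertoli cells and spermatogonia had this order too, the last of them germ cells (209 and 214 CPM against 196 and 207 CPM). Markers of spermatocytes and round spermatids had the reverse order. The macrophage sum was highest in the shallow knockout library, whereas the 28 genes were highest in control replicate 2. Over 11 lymphocyte and dendritic cell markers, of which *Cd8a* was at 0 in every library, the sums were 12.4 and 12.1 CPM in control testis and 13.3 and 13.2 CPM in knockout testis, the opposite order within each genotype. The part of these cell types in the values of the set was not tested. The 5 genes with at least 100 reads in every library summed to 146 and 135 CPM in control testis and to 131 and 135 CPM in knockout testis.

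**Figure D5:**
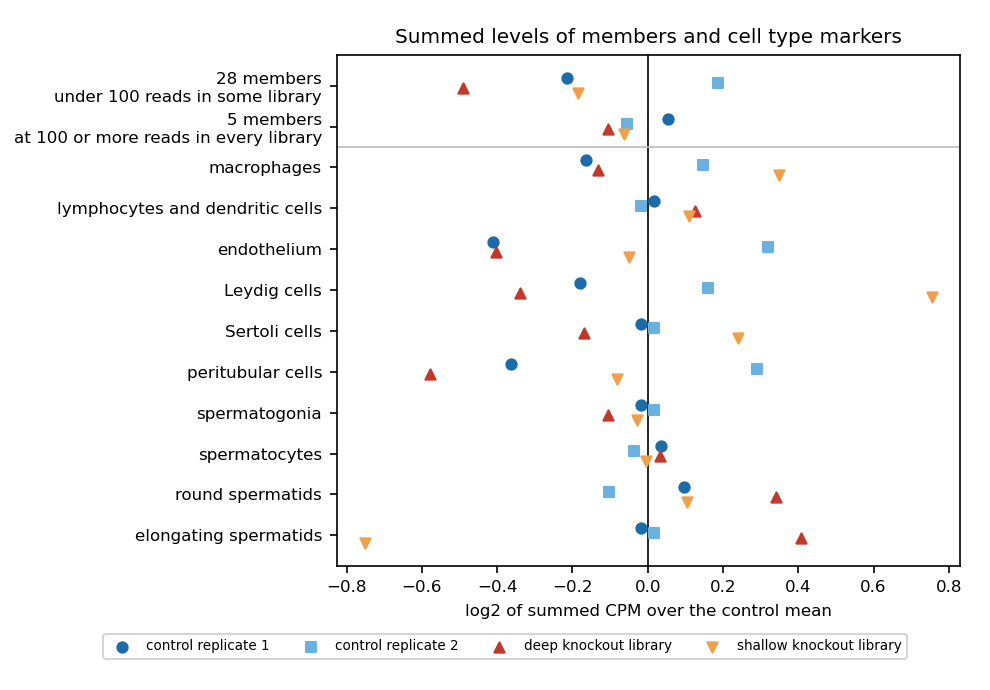
Summed CPM of the low and the high members of the set and of cell type marker lists in each library, as log2 of the ratio to the control mean (horizontal axis). Symbols are as in the plot of single genes, and the vertical line marks the control mean. Control replicate 2 is highest for the 28 low genes, endothelium and peritubular cells, whereas elongating spermatids are highest in the deep knockout library (0.41) and lowest in the shallow one (-0.75).

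The rest of the pathway was read from lists of 109 further genes, of which 106 were in the table under the names used and 74 had enough reads. None of the 74 passed an adjusted p of 0.05 (edgeR; 0.0947% of all genes tested passed), and 4 had an unadjusted p under 0.05 (5.41%, against 7.79% of all genes tested). DESeq2 called 1 (1.35%, against 1.22% of all genes tested), the likelihood ratio test 2 (2.70%, against 2.36%) and limma voom 0 (against 0.0695%). With the deep or the shallow knockout library left out, edgeR called 14 and 10 of the 74 (18.9% and 13.5%, against 23.6% and 17.0% of all genes tested). Transcripts of the ligands were at the limit of detection. Over 21 interferon genes there were 3 and 1 reads in control testis and 2 and 0 in knockout testis, from *Ifnk*, *Ifnb1* and *Ifnl2*, and the other 18 had no read. Their mRNA was thus at or under the floor of 3 reads in every library.

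All 10 genes for receptors and the signalling proteins behind them were tested, with 4 log2 fold changes below 0 and 6 above and a median of 0.06. *Jak1*, the receptor kinase gene with the most reads, stood at 0.03 (95% interval -0.44 to 0.51), the interferon gamma receptor gene *Ifngr2* at 0.09 (-0.18 to 0.35) and the type I receptor gene *Ifnar1* at 0.12 (-0.22 to 0.47). Among 14 sensors, adaptors and kinases, 7 values were below 0 and 7 above. *Irf3*, the transcription factor that sensors activate, stood at -0.04 (-0.33 to 0.25), its kinase gene *Tbk1* at 0.04 (-0.37 to 0.46) and the adaptor gene *Mavs* at 0.26 (-0.55 to 1.08). Among 9 other IRF and feedback genes, 4 were below 0 and 5 above, with *Pias1* at 0.10, *Ptpn11* at -0.07 and *Irf2* at -0.09. Among 36 other interferon-stimulated genes tested, 20 were below 0 and 16 above, with a median of -0.04. The most abundant of them were *Tdrd7*, a gene of germ cell granules, at 0.07, the nuclease gene *Isg20* at 0.26, and *Parp11*, a mono-ADP-ribosyltransferase gene, at 0.00. Of the p200 family on chromosome 1, 5 of 12 genes in the table were tested, with 3 values below 0 and 2 above and a median of -0.14. The most abundant were *Ifi209* at -0.14, *Ifi207* at 0.65 and *Ifi203* at 0.23. These 3 lie between 173630917 and 173942672 on chromosome 1, where *Parp1* starts at 180568924. Whether DNA of the strain of origin of the knockout allele remained there was not tested.

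The DNA sensor gene *Cgas* (chromosome 9, 78430526 to 78443237), whose product makes the messenger that activates STING, was among the 4 pathway genes with an unadjusted p under 0.05, which are given because of that p. It had 82 and 99 reads in control testis, 40 in the deep knockout library and 29 in the shallow one. In CPM it stood at 3.98 and 4.18 against 1.98 and 1.51. Here both knockout libraries were low, with no overlap. The log2 fold change was -1.22 (95% interval -1.94 to -0.51, adjusted p = 0.307 by edgeR). The likelihood ratio test gave an adjusted p of 0.0178, DESeq2 0.233 and limma voom 0.312. With the deep or the shallow knockout library left out, the adjusted p of *Cgas* by edgeR was 0.00175 and 0.0196, in fits that called 23.6% and 17.0% of all genes tested. *Tlr9*, the endosomal sensor of CpG DNA, had 25 and 33 reads in control testis and 14 and 11 in knockout testis (log2 fold change -1.04, adjusted p = 0.603 by edgeR). *Trim25*, the ubiquitin ligase gene that acts on the RNA sensor RIG-I, had 326 and 415 reads in control testis and 425 and 491 in knockout testis (log2 fold change 0.48, adjusted p = 0.495 by edgeR).

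*Trim30d* (chromosome 7, 104470014 to 104507849), a paralogue 4.82 kb from *Trim30a*, was found in control testis alone. It had 15 and 23 reads in control testis and 0 in both knockout libraries, and all control reads were unique. With 3 reads allowed over the knockout group, it was at least 11.3-fold lower in knockout testis. The knockout allele came from another strain than C57Bl/J, and whether a strain difference at *Trim30d* remained after the crosses was not tested. The adjusted p was 0.179 by edgeR's quasi-likelihood test and 0.0789 by limma voom, whereas DESeq2 gave 0.0258 and the likelihood ratio test 6.93e-07. With the deep or the shallow knockout library left out, the adjusted p of *Trim30d* by edgeR was 0.00171 and 0.00187. *Trim30a* itself had 13 and 28 reads in control testis and 11 and 17 in knockout testis.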

How the data were processed

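Poly(A) RNA of testis was sequenced from both ends (150 bp, NEB Ultra II kit). After trimming, the authors used CLC Genomics Workbench to align the reads against GRCm38 (mm10), and the deposited gene table gives whole counts of total exon reads, which were used here together with exon lengths. Unique exon read counts, as deposited, were used for the control libraries alone. A further 60 columns with a value for each library were left out. The deposited columns of the authors' own comparison hold fold changes and p-values and were not used. No row lacked a gene name.

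Testing was done with edgeR 4.0.16 in R 4.3.3 (filterByExpr with its minimum of 10 counts, TMM, quasi-likelihood test, genotype as the only term, Benjamini-Hochberg adjustment over 15834 genes). The standard error was the log2 fold change divided by the root of F. TMM factors were 1.01 and 1.01 in control and 0.928 and 1.06 in the deep and the shallow knockout library, and the biological coefficient of variation was 15.3%. Floors of 3 reads cover counting error only. An exact permutation test of 2 against 2 libraries cannot go below p = 0.333, so none was used. Alternatives were DESeq2 1.42.0, edgeR's likelihood ratio test, limma 3.58.1 (voom), other scalings and filters, a threshold of 0.1 and leaving out each library. The procedure was run on simulated data in which only genes with many reads were changed and all libraries varied alike. That run does not cover the genes of the set with few reads or the difference between the knockout libraries. Promoter windows are RefSeq's (GRCm38.p6), overlaps were read from GENCODE M21 with Python 3.11.15 and pandas 2.3.3, and figures were drawn with matplotlib 3.10.9.

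The genes of the set and the pathway and marker lists were chosen with earlier results of these data known. All 33 genes were named. Values in every library were given for those with an unadjusted p under 0.05, the 2 with the most reads in each role, and the PARP group. In each pathway list the genes named were those past the threshold and up to 3 with the highest mean CPM. *Cgas*, *Tlr9*, *Trim25*, *Trim30d*, *Irf7* and *Mx1* were added after their values were seen. *Ifi30*, *Mnda* and *Pyhin1* were not analysed here. Both knockout titles refer to a *Parg* line, so samples were grouped by genotype label.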

Additional observations from a re-analysis of the deposited data

How the results depend on the processing

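Depth limited most of the set. The 95% interval of the fold change spanned a median of 1.81-fold in the 5 genes with at least 100 reads in every library and of 4.57-fold in the 16 with fewer than 100 in each. Over all genes tested, 15 passed the threshold, against 193 in DESeq2, 374 in the likelihood ratio test, 11 in limma voom, 41 with no scaling factors and 52 with no filter. Without control replicate 1 or 2 the numbers were 5 and 8, and without the deep or the shallow knockout library 3735 and 2693. The set had 0 genes past the threshold under each alternative except leaving out a knockout library (0 to 5 over the 4 libraries left out in turn). The pathway lists had 1 in DESeq2, 2 in the likelihood ratio test and 0 to 14 with a library left out. The median log2 fold change of the set ranged from -0.41 (shallow knockout library) to 2.75e-06 (control replicate 2) with a library left out. With 3 bases between the GAAA blocks, 5 of 23 promoters matched (21.7%, against 3.17% of genes).

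Of the 23 genes tested, 9 kept the sign of their log2 fold change under every alternative run (*Stat2*, *Dhx58*, *Usp18*, *Oasl1*, *Oasl2*, *Cmpk2*, *Parp9*, *Parp12* and *Parp14*). All of these except *Oasl1* are the genes whose genotypes did not overlap in CPM. For them, leaving out a library could not turn the sign, so the kept sign adds no separate evidence. The share of all genes tested that kept their sign was not computed. *Xaf1* changed sign by limma voom (-0.063), and *Parp11* with upper quartile scaling (-0.0013), no scaling factors (-0.015) and at least 10 reads in every library (-0.0026). With a library left out, values of the set that changed sign ranged from -0.33 to 0.53 in *Irf9*, -1.78 to 0.16 in *Irf7*, -0.80 to 0.20 in *Ifih1*, -1.93 to 0.14 in *Mx1*, -0.28 to 0.021 in *Mx2*, -0.49 to 0.39 in *Bst2*, -0.59 to 0.48 in *Xaf1*, -0.93 to 0.79 in *Rtp4*, -0.51 to 1.29 in *Ifi44*, -0.12 to 0.0067 in *Ifi35*, -0.75 to 0.17 in *Trim30a*, -0.050 to 0.58 in *Dtx3l*, -0.27 to 0.058 in *Parp10* and -0.31 to 0.52 in *Zc3hav1*. In the pathway they ranged from -0.21 to 0.91 in *Ifi203*, -0.49 to 0.14 in *Ifi209*, -0.038 to 0.27 in *Ifnar1*, -0.14 to 0.058 in *Irf3*, -0.057 to 0.52 in *Isg20*, -0.27 to 0.29 in *Jak1*, -0.29 to 0.66 in *Mavs*, -0.071 to 0.074 in *Parp11*, -0.35 to 0.17 in *Ptpn11* and -0.16 to 0.22 in *Tbk1*. The cause was not tested. No paired analysis was possible because the knockout columns carry no replicate number that ties each to a sample. Unique reads in place of total reads were not run, since 1 measure was kept for the knockout columns, which are tied to a genotype alone. In control testis all reads were unique in 28 of the 33 genes.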
